A study of Mus musculus with 72 samples.

Results

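Adult brain of male DBA/2J mice (D2) was compared with adult brain of male C57BL/6J mice (B6), with 3 arrays for each strain. The 6 arrays were chosen by the strain, stage and tissue in the sample titles and are 6 of the 72 arrays of the series, which covers 3 inbred strains, 4 stages (E14.5, P1, P7 and P90) and the tissues brain and liver. The animals of both groups were untreated, 11 to 14 weeks old at the stage labelled P90, and had been bought from The Jackson Laboratory. Per the labels, the whole brain was dissected and frozen on dry ice, and RNA was extracted with TRIzol and RNeasy columns. The labels do not say whether the 3 arrays of a strain came from separate animals, so p-values measure only the spread between arrays. That spread, and each SE, was pooled over the groups of all 36 brain arrays, or of all 72 arrays for liver. It can be smaller than the spread of the 6 adult arrays of a gene, and the number of arrays limits the precision. The 3 arrays of adult 129S2 brain (Charles River) lie in the same normalization set, and their values are given beside those of the other strains where they help to read a level.

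C57BL/6J and DBA/2J are old inbred strains, and the mice within each are genetically near identical. They differ in coat colour, hearing, vision in age and responses to drugs and alcohol, and crosses between them founded the BXD panel, a standard resource for mapping the genetic control of brain transcripts. A transcript can differ between such strains through a variant in the gene itself or near it, through the copy number of its segment, or through a difference in the cells or in the state of the tissue.

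The deposited values are log2 RMA signals. Each gene was represented by 1 probe set, the one with the highest mean over the 9 adult brain arrays, and 11503 of 18194 genes had a strain mean above 6.43, the median of these arrays, and were tested. Markers of neurons checked the tissue, since 12 of 12 lay above that filter and their mean level was 12.05 to 12.08 in the B6 arrays and 12.01 to 12.06 in the D2 arrays, against at most 4.09 in adult liver of these strains. Of 12 measured markers of the cerebellum, which belongs to a whole brain, 6 lay above the filter and 6 under it. Above it were Calb1 (11.58 in B6 and 11.68 in D2), Zic1 (10.30 and 9.87), Pvalb (10.16 and 10.47), Cbln1 (8.50 and 8.82), Neurod1 (7.56 and 7.59) and Car8 (7.44 and 7.12), several of which other brain regions also express. Markers of its granule and Purkinje cells were among those under the filter in all 3 strains. The granule cell genes Gabra6 and Cbln3 had group means of 3.98 to 4.14 and 4.20 to 4.24, the Purkinje cell gene Pcp2 of 5.71 to 5.99, and En2, a patterning gene of midbrain and cerebellum, of 4.54 to 4.84. At P7 these 4 genes were also under the median of their set, while En2 had group means of 7.54 to 10.24 in E14.5 brain. The cholinergic and glycinergic genes of the brain stem list, Chat and Slc6a5, were at 4.65 and 4.50 in B6 and at 4.85 and 4.58 in D2. Median SDs within a strain were 0.051 in B6 and 0.0567 in D2. One 129S2 array, replicate 2, stood apart from the others of its strain. The correlation of its deviations from gene means was 0.245 and 0.254 with those arrays, which had 0.681 with each other, against at least 0.758 within B6 and 0.662 within D2. It enters these comparisons only through the estimate of the spread, and without it 264 genes differed between D2 and B6, as with it, while 147 in place of 141 changed with stage and 390 in place of 385 departed from liver.

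Across all genes tested, 264 (2.3%) differed between the strains with an adjusted p under 0.05 and at least a 1.5-fold change (limma, all 36 brain arrays in the fit, Benjamini-Hochberg adjustment). Of these, 117 (1.02%) were higher and 147 (1.28%) were lower in D2. At least 2-fold differences numbered 47 and 61, and at least 4-fold differences 8 and 22. Most genes differed little, with a median absolute difference of 0.08 on the log2 scale. For 263 of the 264 genes the 3 arrays of D2 did not overlap those of B6, and so they did for 4444 of all genes tested (38.6%), so the absence of overlap alone says little. In 71 of the 264 genes the strain with less signal had a mean under the filter, and their sizes are not exact, since the files hold no detection calls.

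**Figure D1:**
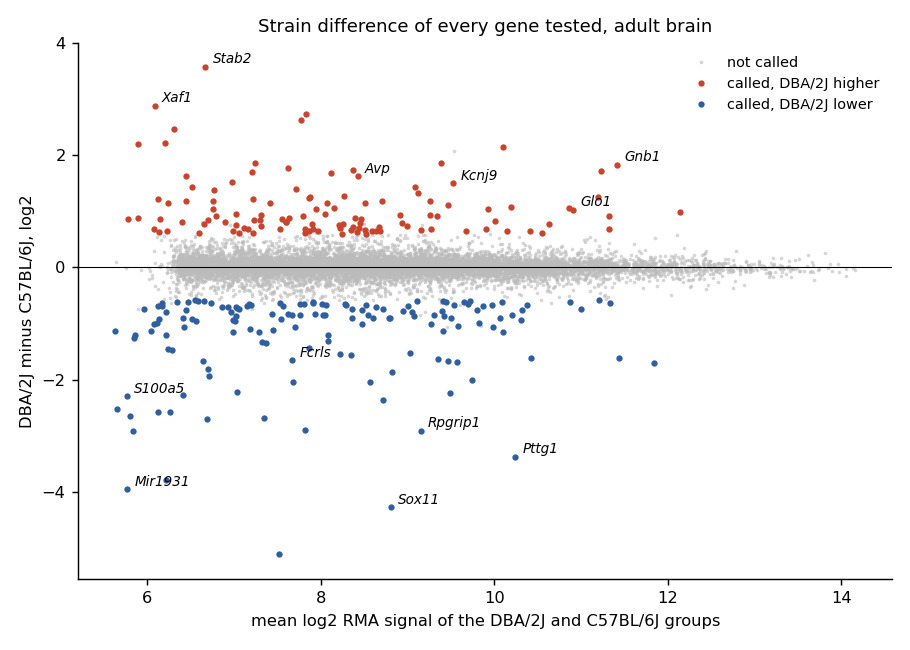
Each point is 1 of 11503 genes, with its mean log2 RMA signal over the D2 and B6 groups on the horizontal axis and the D2 minus B6 difference (log2) on the vertical axis. The 117 genes called higher in D2 are red and the 147 called lower are blue, and the grey genes lie close to 0 over the whole range of signal.

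Stab2, a scavenger receptor best known from sinusoidal endothelium, had the largest difference in favour of D2. Its signal was 4.95, 4.89 and 4.82 in the B6 arrays and 8.45, 8.28 and 8.64 in the D2 arrays, a difference of 3.57 ± 0.14 (log2, SE; 11.9-fold, adjusted p = 5.12e-17). The B6 arrays were all near background and the D2 arrays were all far above them, while 129S2, with a mean of 4.88, lay with B6. Xaf1, a proapoptotic gene induced by interferon, followed with 4.22, 4.73 and 4.99 in B6 and 7.55, 7.62 and 7.43 in D2 (2.88 ± 0.23, adjusted p = 3.14e-10). It was the only called member among 11 tested genes of the interferon response, and the median of that list was 0.03. Of the 11 genes, 6 had a difference above 0 and 5 below it, down to -0.56. The adjusted p was passed by 3 of them, Xaf1 included. The RNA-binding protein gene Rbm45 (2.73 ± 0.19) and the Golgi protein gene Tmem87a (2.62 ± 0.17) came next.

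The 12 highest named genes include receptors and signalling genes. Sstr1, a receptor for the inhibitory peptide somatostatin, was at 5.42, 5.22 and 4.58 in B6 and 7.43, 7.80 and 7.40 in D2 (2.47 ± 0.20). Gprc5b, an orphan receptor, was 1.86 ± 0.21 higher. Gnb1, the beta subunit shared by many G proteins, was at 10.65, 10.37 and 10.48 in B6 and at 12.31, 12.36 and 12.33 in D2. This abundant transcript thus stood 1.83 ± 0.07 higher in D2 (3.56-fold, adjusted p = 5.12e-17), and 129S2 had the level of D2 (12.33). Cap1, an actin regulator that binds adenylyl cyclase, was at 9.10, 9.14 and 8.86 in B6 and 11.16, 11.25 and 11.12 in D2 (2.14 ± 0.19). The other members of the highest 12 were Cuedc1 (1.85), Wdfy1 (1.78), Hddc3 (1.73) and the protease inhibitor gene Serpina1b (2.22 ± 0.65, adjusted p = 0.033). Serpina1b belongs to a family of near-identical copies that the array cannot separate with certainty, and its call was lost with any 1 of the 6 arrays left out (adjusted p from 0.0747 to 0.123).

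Sox11, a transcription factor of newly formed neurons, had the lowest value among the named genes. Its probe set read 10.75, 11.05 and 11.05 in B6 and 6.51, 6.81 and 6.70 in D2, a difference of -4.27 ± 0.22 (adjusted p = 8.19e-15). Only 1 of 5 further probe sets of Sox11 was called lower, and another was called higher, as described with the probe sets. Pttg1, which encodes securin, the inhibitor of sister chromatid separation, was at 11.93, 11.94 and 11.93 in B6 and at 8.54, 8.52 and 8.60 in D2 (-3.38 ± 0.15, adjusted p = 6.31e-16). It ranked with the abundant transcripts in B6 and was 10.4-fold lower in D2, and 129S2 (8.41) lay with D2. Nek2, a mitotic kinase, was at 7.35, 7.45 and 7.45 in B6 and 4.80, 5.20 and 4.52 in D2 (-2.58 ± 0.13), and here 129S2 (7.44) lay with B6. The further probe sets of Nek2 lay under the filter in all strains, with differences of -0.09, 0.01 and -0.04.

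Rpgrip1, which encodes a scaffold of the photoreceptor connecting cilium, was at 10.59, 10.58 and 10.65 in B6 and 7.71, 7.68 and 7.72 in D2 (-2.91 ± 0.19). This rests on a single probe set, since the further ones of Rpgrip1 lay under the filter in all strains, with differences of -0.13, -0.04 and 0.035. Sc5d, the sterol desaturase of late cholesterol synthesis, was at 9.93, 9.85 and 9.92 in B6 and 7.71, 7.55 and 7.37 in D2 (-2.36 ± 0.12), but neither of its 2 further probe sets was called (-0.41 and -0.03). It was the only called gene among 14 tested genes of cholesterol synthesis, whose median was -0.08. Ang, the ribonuclease angiogenin, was at 7.18, 6.94 and 7.28 in B6 and 4.52, 4.63 and 4.30 in D2 (-2.65 ± 0.16). Tmem267 (-3.79 ± 0.59), the epidermal gene Sbsn (-2.68 ± 0.13) and the zinc finger gene Zfp874a (-2.53 ± 0.15) were lower as well. Pdxdc1 was at -2.90 ± 0.14 by the probe set that stands for it, while another was called higher (3.76), so no direction can be given for the gene. The highest and lowest named genes were picked from called genes without overlap, so the gap between their B6 and D2 arrays was set by that choice.

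A probe set annotated to the microRNA gene Mir1931 was at 7.74, 7.63 and 7.86 in B6 and 3.86, 3.84 and 3.67 in D2 (-3.95 ± 0.26, adjusted p = 3.49e-12). The mature form in RefSeq (GRCm38.p6, chr10:93162879-93162900, plus strand) is shown because the name alone does not tell which microRNA is meant. Capitals mark its seed, bases 2 to 8.
mmu-miR-1931: aUGCAAGGgcuggugcgauggc
An array of this kind measures long polyadenylated RNA, so the value belongs to a transcript assigned to the locus and not to this mature form.

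**Figure D2:**
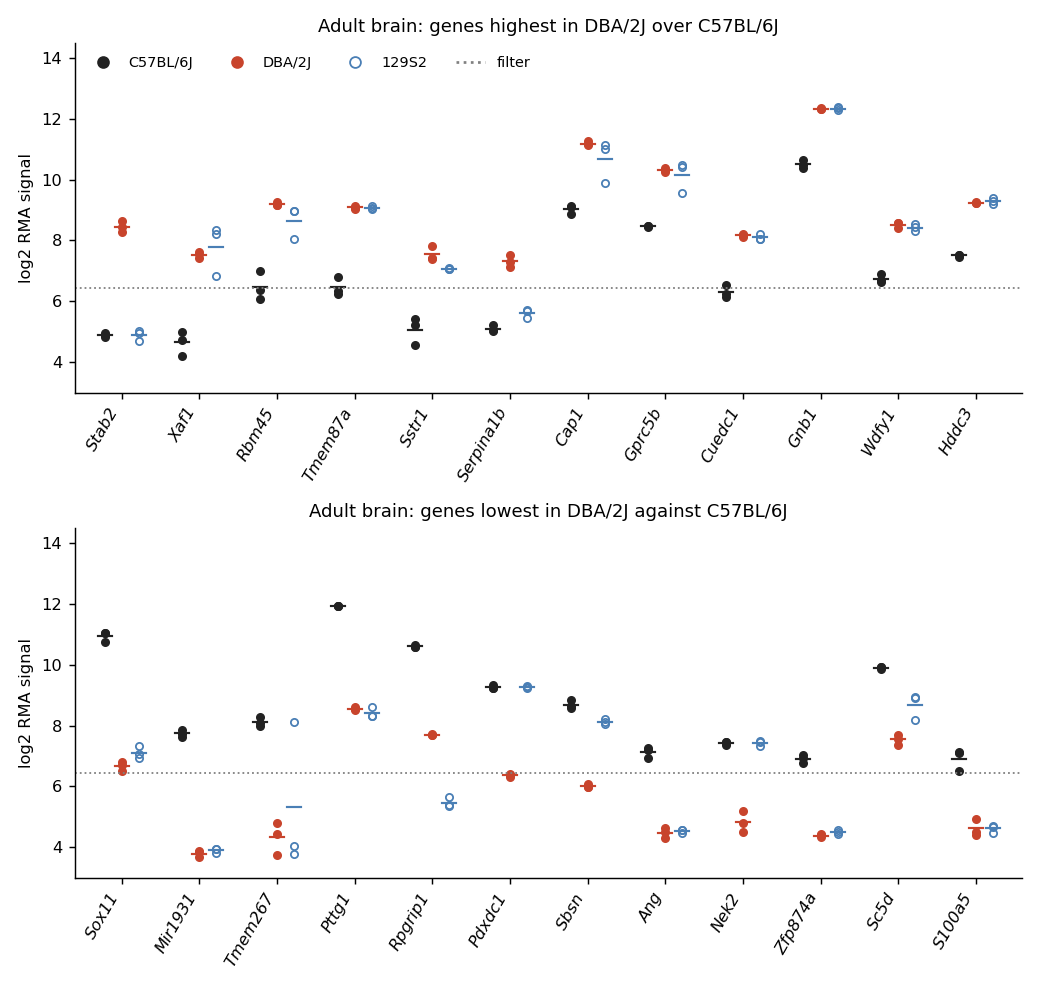
The log2 RMA signal of each adult brain array is plotted for the 12 highest (upper panel) and the 12 lowest named genes (lower panel), with short lines for group means and a dotted line for the filter at 6.43. B6 and D2 points are apart for every gene because only genes without overlap were picked. The 129S2 points lie with D2 for Gnb1 and Pttg1 and with B6 for Stab2 and Nek2.

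Structural variants between these strains were covered by a list of duplicated and copy-number-variable loci, of which 10 genes were tested. Of these, 3 were called higher in D2 and 1 lower, against 1.02% and 1.28% of all genes tested. Glo1, the glyoxalase that removes methylglyoxal, was at 10.41, 10.45 and 10.33 in B6 and 11.44, 11.43 and 11.41 in D2 (1.03 ± 0.13, adjusted p = 2.57e-06), and its 3 further probe sets were called higher as well. Alad, which acts early in haem synthesis, was at 8.38, 8.31 and 8.43 in B6 and 9.76, 9.98 and 9.66 in D2 (1.43 ± 0.15). Its neighbour Hdhd3 was 1.14 ± 0.11 higher, and the second probe set of Alad was called higher too (1.00). Trim30a, a regulator of innate immune signalling from a variable gene cluster, fell by 0.69 (SE 0.11) on the log2 scale. The differences of Glo1 and Alad stayed close at all stages, from 0.92 to 1.07 and from 1.28 to 1.48.

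Genes adjacent in the RefSeq order of GRCm38.p6 and called in the same direction formed 6 pairs. Kcnj9 and Kcnj10, inwardly rectifying potassium channels of neurons and of astrocytes, form such a pair. Kcnj10 was at 9.65, 9.50 and 9.64 in B6 and 10.36, 10.37 and 10.54 in D2 (0.83 ± 0.10). Kcnj9 was at 8.77, 8.75 and 8.81 in B6 and 10.16, 10.21 and 10.47 in D2 (2.83-fold, adjusted p = 3.78e-11), but the probe set that is brightest over all 72 arrays gave -0.55. They were the only called genes among 18 tested potassium channels, whose median was -0.01. Hdhd3 with Alad, Oxt with Avp, and the predicted genes 6820431F20Rik and 2610005L07Rik were the other higher pairs. C1qb with C1qc, and 2610507I01Rik (-1.93) with the mitochondrial ribosomal gene Mrpl55 (-0.78), were the lower ones. The runs were counted without a test.

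Transmitter receptors otherwise differed little. Gabra2, a GABA-A receptor subunit with a known variant in B6, was at 7.93, 7.92 and 7.95 in B6 and 8.93, 9.23 and 9.10 in D2 (1.15 ± 0.14, adjusted p = 1.48e-06), and 129S2 lay with D2 at 9.09. It was the 1 called gene of 9 tested GABA-A subunits, whose median was -0.07. None of 14 ionotropic glutamate receptors, 9 metabotropic ones or 17 genes of synaptic vesicles and active zones was called. Of those 17 genes, 13 had a difference below 0, against 43.1% of all genes tested, and 4 above it, with a median of -0.07. Arrays of 8 of the 17 lay lower in D2 without overlap, against 17% of all genes, and of 1 higher. Among 17 sodium and calcium channel genes, Scn4b, an auxiliary sodium channel subunit, was at 10.81, 10.69 and 10.81 in B6 and 9.82, 9.77 and 9.93 in D2 (-0.93 ± 0.14). Rasd2, a small G protein enriched in striatum, fell by 0.76 (SE 0.13), while the other 8 tested striatal markers were not called and Penk (-0.10) and Tac1 (0.28) stood for them at the highest levels. Pcdhb3, an adhesion protein of neurons, was the only called gene of 8 tested in the protocadherin beta cluster (0.94 ± 0.12).

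Of 9 tested members of the hypothalamic list, 4 were called higher in D2 and none lower, against 1.02% and 1.28% of all genes tested. The list median was 0.69 against 0.02 for all genes tested, with 7 of the 9 differences above 0 and 2 below it. Avp, which encodes the antidiuretic hormone vasopressin, was at 7.63, 8.33 and 6.89 in B6 and 9.29, 9.57 and 8.86 in D2 (1.62 ± 0.26, adjusted p = 5.62e-05). Oxt, the neighbouring gene for oxytocin, was at 7.99, 8.60 and 7.58 in B6 and 9.04, 8.86 and 8.66 in D2 (0.79 ± 0.16, adjusted p = 0.00136). Both were lower in every B6 array than in every D2 array. Hcrt, the precursor of the wake-promoting orexins, was at 6.80, 7.99 and 6.57 in B6 and 8.10, 7.92 and 7.92 in D2 (0.86 ± 0.19, adjusted p = 0.00314), and was the only called gene whose groups overlapped. Gal, which encodes galanin, was at 6.53, 7.10 and 6.37 in B6 and 7.26, 7.31 and 7.35 in D2 (0.64 ± 0.14).

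The B6 arrays differed among themselves in these genes far more than the D2 arrays. Pmch, the precursor of melanin-concentrating hormone, read 8.68, 10.16 and 6.63 in B6 and 10.55, 10.68 and 10.49 in D2, and its difference of 2.08 ± 0.71 did not pass (adjusted p = 0.0844). The mean level of the hypothalamic list was 6.93 to 7.72 in the B6 arrays and 7.80 to 7.96 in the D2 arrays, with 129S2 at 7.75 to 7.99. B6 replicate 3 was the lowest array for Avp, Oxt, Hcrt, Gal and Pmch, and replicate 2 the highest. Without B6 replicate 3, 1 of the 9 genes was still called, Avp at 1.26 (adjusted p = 0.00139), while Oxt was at 0.55, Hcrt at 0.58 (adjusted p = 0.0647) and Gal at 0.50 (adjusted p = 0.0571). Without B6 replicate 2, 6 of the 9 were called. Without B6 replicate 1, Gal was at 0.57 and not called. Markers of the thalamus and habenula had a list level of 8.35, 8.21 and 7.99 in B6 and 8.35 to 8.39 in D2. B6 replicate 3 was thus the lowest array for both lists, but replicate 1 had the level of D2 in the thalamic list and not in the hypothalamic one. The part of the dissection in these differences was not tested. In whole tissue, fewer cells of a type and less RNA per cell cannot be told apart.

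Both monoamine transporters of dopamine neurons rose. Slc6a3, the plasma membrane transporter that marks midbrain dopamine neurons, was at 4.98, 6.14 and 5.78 in B6 and 7.44, 6.62 and 7.74 in D2 (1.63 ± 0.24, adjusted p = 1.78e-05). Slc18a2, the vesicular monoamine transporter, was at 5.70, 6.23 and 6.08 in B6 and 6.95, 6.32 and 7.15 in D2 (0.81 ± 0.19, adjusted p = 0.00662). The groups did not overlap in these genes, though D2 replicate 2 lay close to B6. The B6 means of both (5.63 and 6.00) lay under the filter. Slc18a2 was not called without B6 replicate 1 (0.66, adjusted p = 0.0719) or without D2 replicate 3 (0.64, adjusted p = 0.0826). The enzymes of dopamine synthesis did not pass, with Th at -0.05 and Ddc at 0.61. These 2 transporters were the only called members of 10 tested dopamine and noradrenaline genes, against 1.02% of all genes tested called higher. The median of that list was 0.07 against 0.02 for all genes tested, with 6 differences above 0 and 4 below it. None of 7 serotonin genes was called. Irs4, an insulin receptor substrate, read 5.39, 6.99 and 5.86 in B6 and 7.77, 7.13 and 7.48 in D2 (1.38 ± 0.35), and lost its call without B6 replicate 1 (1.04), without B6 replicate 3 (1.27) or without D2 replicate 1 (1.23).

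Of 5 tested members of the olfactory bulb list, Doc2g and Cdhr1 were called lower in D2 and none higher, with a median of -0.07. Among all genes tested, 1.28% were called lower. The other members were Slc17a6 (0.41, adjusted p = 0.268), Th (-0.05) and Trh (-0.07). S100a5, a calcium-binding protein known from the olfactory system that is not in that list, was at 7.14, 7.10 and 6.51 in B6 and 4.94, 4.51 and 4.41 in D2 (-2.30 ± 0.13, adjusted p = 9.96e-14). Doc2g was at 7.43, 7.52 and 7.54 in B6 and 6.37, 6.50 and 6.75 in D2 (-0.96 ± 0.11, adjusted p = 2.6e-07). Cdhr1, a cadherin of mitral cells and photoreceptors, was at 8.45, 8.66 and 8.63 in B6 and 6.92, 6.96 and 7.56 in D2 (-1.43 ± 0.38, adjusted p = 0.0173). The D2 arrays were lower than the B6 arrays without overlap in all 3 genes. The transcription factors Eomes, Sp8 and Tbx21 of bulb neurons lay under the filter and were not tested, with D2 minus B6 levels of -0.69, -1.04 and -0.52. The list level was 7.03 to 7.14 in B6, 6.44 to 6.70 in D2 and 6.47 to 6.76 in 129S2. Cdhr1 was not called without B6 replicate 2, B6 replicate 3, D2 replicate 1 or D2 replicate 2 (-1.41 to -1.32, adjusted p from 0.0651 to 0.0912). How much of the olfactory bulb each dissection held was not tested. Markers of cortical layers (10 tested), hippocampus (6 tested) and cerebellum (6 tested) gave no call.

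**Figure D3:**
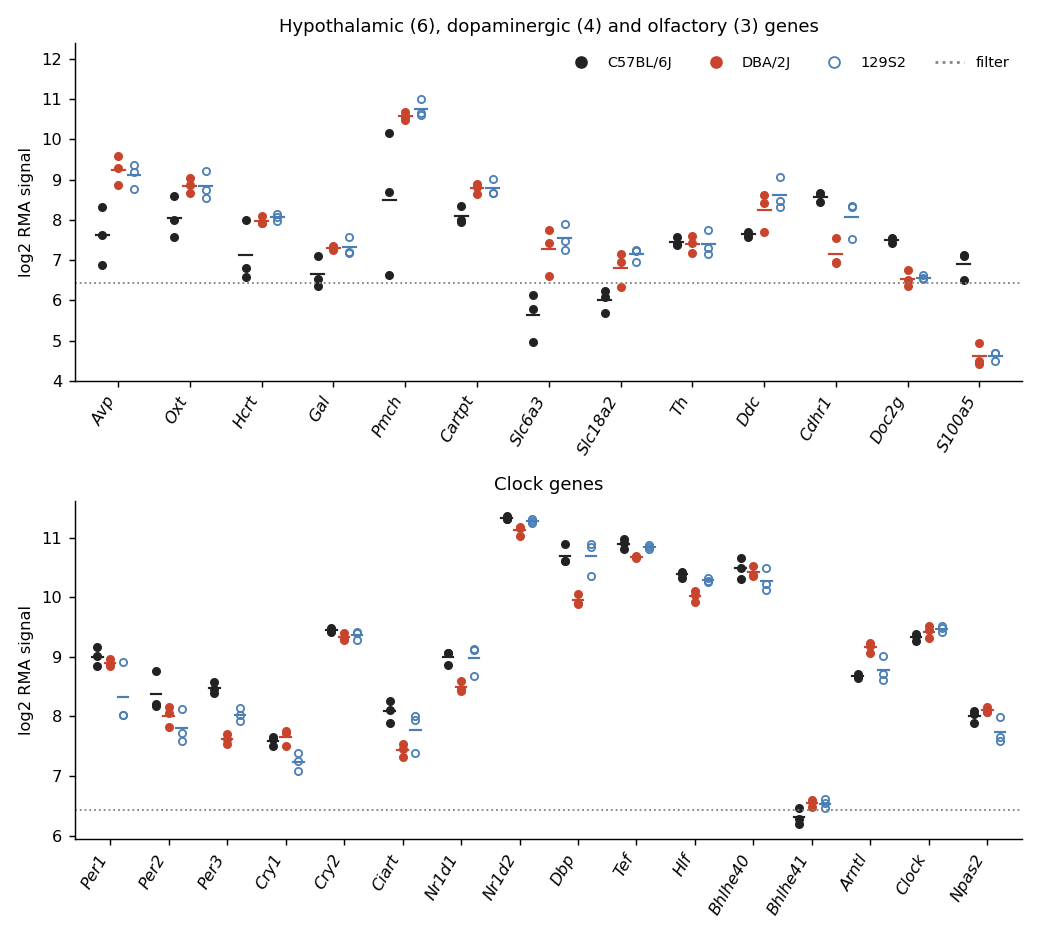
The log2 RMA signal of each adult brain array is plotted for genes of hypothalamus, dopamine neurons and the olfactory system (upper panel) and for 16 clock genes (lower panel), with short lines for group means and a dotted line for the filter at 6.43. The B6 arrays spread widely for Pmch, from 6.63 to 10.16, while the 3 D2 arrays lie within 10.49 and 10.68.

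Few of the listed glial marker genes were called. C1qb and C1qc encode chains of C1q, the starter of the classical complement cascade, which microglia make in brain. C1qb was at 9.84, 9.75 and 9.98 in B6 and 8.98, 9.01 and 8.95 in D2 (-0.87 ± 0.17, adjusted p = 0.000742). C1qc was at 8.94, 8.99 and 8.98 in B6 and 8.11, 8.22 and 8.04 in D2 (-0.85 ± 0.13, adjusted p = 5.38e-05). C1qa, the gene of the remaining chain, was at -0.03 (adjusted p = 1), and 10 of the 12 tested microglial markers were not called, among them Csf1r (0.00) and Ctss (0.32). Mal, a myelin proteolipid, was the single called gene of 15 tested myelin genes, at 11.49, 11.50 and 11.53 in B6 and 11.00, 10.82 and 10.94 in D2. Its difference of -0.59 ± 0.12 lies at the fold minimum, and the call was lost in some settings, such as without B6 replicate 3 (-0.57) or D2 replicate 2 (-0.54). Differences below 0 were found for 13 of the 15 myelin genes, against 43.1% of all genes tested, and the list median was -0.19. Arrays of 10 of the 15 lay lower in D2 without overlap, against 17% of all genes. None of 12 neuronal, 14 astrocytic or 8 oligodendrocyte precursor genes was called.

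The circadian clock is a feedback loop in which the activators Clock, Npas2 and Arntl drive the Per, Cry and Nr1d genes, which then repress it, while output factors such as Dbp carry the rhythm on. Of 16 clock genes tested, 3 were called lower in D2 and none higher, against 1.28% and 1.02% of all genes tested. The list median was -0.16 against 0.02 for all genes tested, but the probe sets of 1 of the 3, Per3, disagree. Dbp was at 10.61, 10.61 and 10.89 in B6 and 9.88, 10.06 and 9.90 in D2 (-0.75 ± 0.18, adjusted p = 0.00809), and its second probe set gave -0.75 too. Ciart, a repressor of the loop, was at 7.89, 8.11 and 8.26 in B6 and 7.31, 7.45 and 7.54 in D2 (-0.65 ± 0.13, adjusted p = 0.000925). The groups did not overlap in either gene, though both missed the call without B6 replicate 3 (-0.66 with adjusted p = 0.0682 for Dbp, -0.57 for Ciart), which left Per3 as the 1 called clock gene. Per3 was at 8.39, 8.58 and 8.46 in B6 and 7.55, 7.62 and 7.70 in D2 (-0.86 ± 0.20), but another of its probe sets was called higher (0.82), so no direction can be given for the gene. Nr1d1 (-0.51) and Tef (-0.22) passed the adjusted p but not the fold, and so did Arntl, whose difference had the opposite sign (0.48 ± 0.10, adjusted p = 0.00125). The hour at which the animals were killed was not given in the sources used here.

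The stretches before the RefSeq start sites of these 3 genes are shown because rhythmic genes are often described by the motifs held there. Each line gives the 250 bases upstream in GRCm38.p6, 5′ to 3′ on the strand of the gene, with the E-box CACGTG and the D-box TTATGTAA in capitals, searched on both strands (they do not overlap each other). Ciart lies at chr3:95882229-95882478 (minus strand), Per3 at chr4:151044666-151044915 (minus strand) and Dbp at chr7:45704997-45705246 (plus strand).
Ciart: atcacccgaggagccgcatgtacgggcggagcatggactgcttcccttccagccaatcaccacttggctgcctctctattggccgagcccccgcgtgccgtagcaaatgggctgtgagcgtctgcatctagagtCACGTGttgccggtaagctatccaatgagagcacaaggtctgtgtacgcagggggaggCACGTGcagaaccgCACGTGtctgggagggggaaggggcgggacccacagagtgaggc
Per3: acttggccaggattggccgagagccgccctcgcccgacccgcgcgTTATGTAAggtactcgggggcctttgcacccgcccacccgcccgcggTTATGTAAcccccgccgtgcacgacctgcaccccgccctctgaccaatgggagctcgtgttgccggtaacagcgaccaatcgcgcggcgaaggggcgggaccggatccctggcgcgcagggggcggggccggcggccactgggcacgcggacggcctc
Dbp: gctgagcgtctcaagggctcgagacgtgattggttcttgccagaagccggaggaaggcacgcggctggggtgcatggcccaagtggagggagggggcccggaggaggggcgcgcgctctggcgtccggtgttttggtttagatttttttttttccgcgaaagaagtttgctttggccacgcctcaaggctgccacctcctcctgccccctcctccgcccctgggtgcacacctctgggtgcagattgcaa
The Ciart window held 3 E-boxes, the Per3 window 2 D-boxes and the Dbp window neither motif. Of 32851 windows of this length, 6.02% held the E-box and 0.819% the D-box, and among 14 clock genes with a window 5 held the E-box (35.7%) and 1 the D-box. A match describes letters and no binding, and a missing one says nothing of sites elsewhere.

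Genes of neuronal activity and of cell stress had differences mostly above 0 that did not pass. All 19 immediate early genes had a difference above 0, against 56.9% of all genes tested, yet none was called, and the median was 0.33. Egr4 passed the adjusted p at a smaller fold (0.33, adjusted p = 0.0411). Homer1, a synaptic scaffold gene, was at 0.02 by the probe set that stands for it, while 2 of its 5 further probe sets were called higher (1.07, adjusted p = 0.00366, and 0.97, adjusted p = 0.000564). The largest were Egr2 (0.58, adjusted p = 0.241) and Fosb (0.56), and Fos read 11.1, 10.7 and 10.7 in B6 and 11.2, 11.4 and 11.5 in D2 (0.54 ± 0.19, adjusted p = 0.094). Arrays did not overlap for 12 of the 19, against 21.6% of all genes in this direction. The level of the list was 9.49 to 9.59 in B6, 9.83 to 9.91 in D2 and at most 9.74 in 129S2. Of 13 heat shock and chaperone genes 12 were above 0 with a median of 0.21, and none was called, though 3 passed the adjusted p at a smaller fold, namely Hspa5 (0.41, adjusted p = 0.00841), Dnajb1 (0.36, adjusted p = 0.0137) and Hsph1 (0.26, adjusted p = 0.0277). Whether handling moved these genes was not tested.

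Metabolic genes that were called stood alone in their lists. Acer3, an alkaline ceramidase, was at 8.08, 8.21 and 8.14 in B6 and 5.90, 6.01 and 5.89 in D2 (-2.21 ± 0.16), while the other 15 tested lysosome and sphingolipid genes were not called, and 129S2 (8.42) lay with B6. Nnt, the mitochondrial transhydrogenase that carries a deletion in C57BL/6J, was at 8.09, 7.88 and 7.90 in B6 and 8.60, 8.41 and 8.63 in D2 (0.59 ± 0.14). It lies at the fold minimum, like Mal, and was not called when B6 replicate 2 or 3 or D2 replicate 1 or 3 was left out (0.55 to 0.56). It was the only called gene of 18 of oxidative phosphorylation. Among 13 ribosomal protein genes, Rpl14 rose (1.70 ± 0.25) and Rps6 fell (-1.12 ± 0.16). Both belong to families with processed pseudogenes, so their probe sets are uncertain.

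Stage was compared next, to see which adult differences were already present before. Genes were filtered by their adult level alone, so a difference that was not called earlier can also mean little signal then. Among the same 11503 genes, D2 and B6 differed in 494 genes at E14.5 (4.29%, with 2.56% lower in D2), in 163 at P1 (1.42%, with 0.704% lower) and in 181 at P7 (1.57%). Shared with P90 in the same direction were 98 genes at E14.5 (37.1% of the P90 genes, 19.8% of those at E14.5), 98 at P1 (37.1% and 60.1%) and 110 at P7 (41.7% and 60.8%). Of the 264 genes, 68 were called in the same direction at all 3 earlier stages, 30 at 2 of them, 42 at 1 and 124 at none. The 124 were 58 higher and 66 lower in D2. They include Pttg1 and Ptchd4, called in the opposite direction at E14.5, and Slc6a3 and Slc18a2, called so at P7. Stab2, Wdfy1, Sox11, Pdxdc1 and Sbsn were among those called at every stage.

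The adult difference itself departed from the mean of the earlier ones in 141 genes (1.23%), 69 upward (0.6%) and 72 downward (0.626%), and 100 of these were among the 264. Pttg1 had the largest change, since D2 was higher than B6 at E14.5 (1.68), near it at P1 (0.32) and P7 (-0.38) and far below it at P90 (-3.38), a change of -3.92 ± 0.17 (adjusted p = 1.67e-15). Gnb1 was at 0.10, 0.14 and 0.21 at the earlier stages and at 1.83 at P90 (change 1.68 ± 0.08). S100a5 was at -0.01, 0.03 and 0.03 before and at -2.30 at P90. Slc6a3 went from -0.13, -0.13 and -0.90 to 1.63 (change 2.02 ± 0.28), and Avp from -0.20, -0.02 and 0.14 to 1.62. At P7 Slc6a3 was called lower in D2 (adjusted p = 0.0263), as was Slc18a2 (-0.69, adjusted p = 0.0376). Snhg14, the long noncoding host of imprinted small nucleolar RNAs, was lower in D2 at every stage but less so in the adult, from -5.84, -5.46 and -5.19 to -2.24 (change 3.25 ± 0.47). Prune2 (1.74), Ptchd4 (1.95), Irs4 (1.86), Xaf1 (2.01), Pmch (3.09) and Appbp2 (1.74) completed the 10 largest changes. Pmch and Appbp2 (0.59, adjusted p = 0.13) were not called at P90 in the main fit, though Appbp2 was called when only adult brain arrays were fitted. The further probe sets of Appbp2, some under the filter, lay between -0.29 and 0.17 at P90. These tests set differences from separately normalized sets against each other, and the part of unequal scaling of the sets was not tested. Levels at the earlier stages were not filtered, so a difference near 0 there can also mean little signal.

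**Figure D4:**
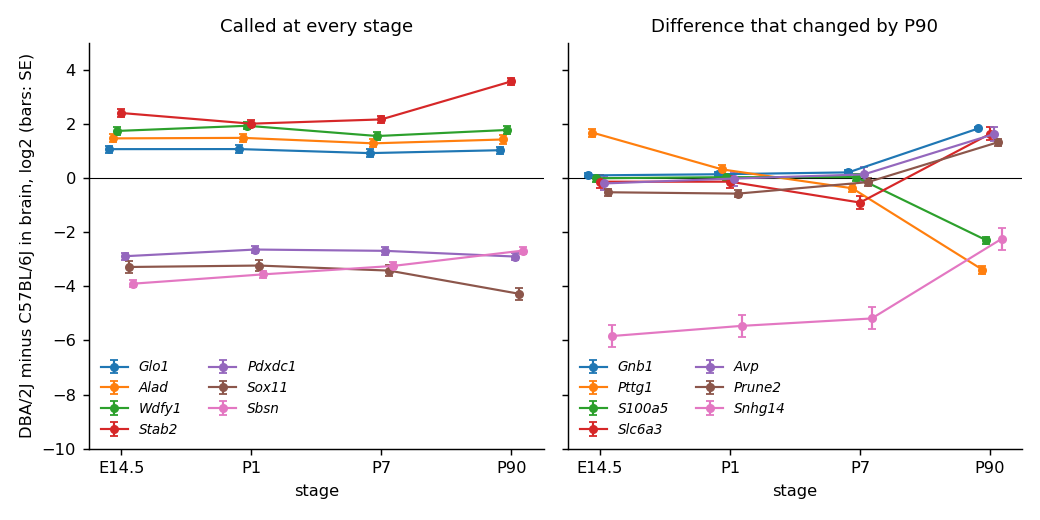
The D2 minus B6 difference in brain (log2, bars are SE, 3 arrays per strain and stage) is plotted against stage for genes called at every stage (left) and for genes whose difference changed by P90 (right). Glo1 stays between 0.92 and 1.07, while Pttg1 passes from 1.68 at E14.5 to -3.38 at P90.

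Liver of the same strains and age separated differences found in both tissues from those found in brain. Of 9543 genes tested in both, 492 (5.16%) differed in liver, 2.13% being higher and 3.03% lower in D2. Among the 264 brain genes 184 were tested there, 74 were called in the same direction (40.2% of the 184, 15% of the liver genes) and 9 in the opposite one. Alad, Glo1 and Rpgrip1 were of like size in liver, at 1.51, 0.99 and -2.92. The brain difference departed from that in liver in 385 genes (4.03%; 215 upward, 170 downward), of which 65 were among the 264. Stab2 differed in brain alone among these tissues, with -0.06 in liver (change 3.63). Rassf4 (-5.10), Fmn2 (-3.60), the hepcidin gene Hamp2 (-3.59), Crym (-3.37) and Dnaic1 (-2.91) had large changes, with D2 above B6 in liver by 2.94 to 5.34, while in brain their differences of -0.45 to 0.37 were not called. Acer3, at -2.21 in brain, was at 0.33 in liver, and Dbp at -0.75 and 0.73. Neither was called in liver (adjusted p = 0.162 for Acer3 and 0.0659 for Dbp).

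How far the value of a gene rests on its probe set was read from genes with several. Of the 264 genes, 156 had no second probe set above the filter. Among the other 108, a second one was called in the same direction for 60 (55.56%), for 31 of 50 genes higher in D2 and 29 of 58 lower. Gnb1 (1.83 and 1.97), Cap1 (2.14 and 2.31), Pttg1 (-3.38 and -2.99) and Sbsn (-2.68 and -2.22) agreed closely. Some genes had further probe sets only under the filter. Those of Acer3 gave -0.55 to 0.13, that of Xaf1 -0.62 and that of Hddc3 -0.05, while those of Ang gave -1.03 and -0.12. For 11 of the 264 genes a further probe set was called in the opposite direction. Prune2 was at 1.32 by its own probe set and at -6.37 by another, which read 10.6 in B6 and 4.27 in D2. Pdxdc1 was at -2.90 and -0.87 by 2 probe sets and at 3.76 by another, and Sox11 at -4.27 and -0.68 against 1.07. A single second probe set of Gprc5b gave 0.01 and that of Cuedc1 0.12. Probe sequences were not used here, so a difference in RNA amount, in transcript form and in the probed sequence cannot be told apart for these genes.

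**Figure D5:**
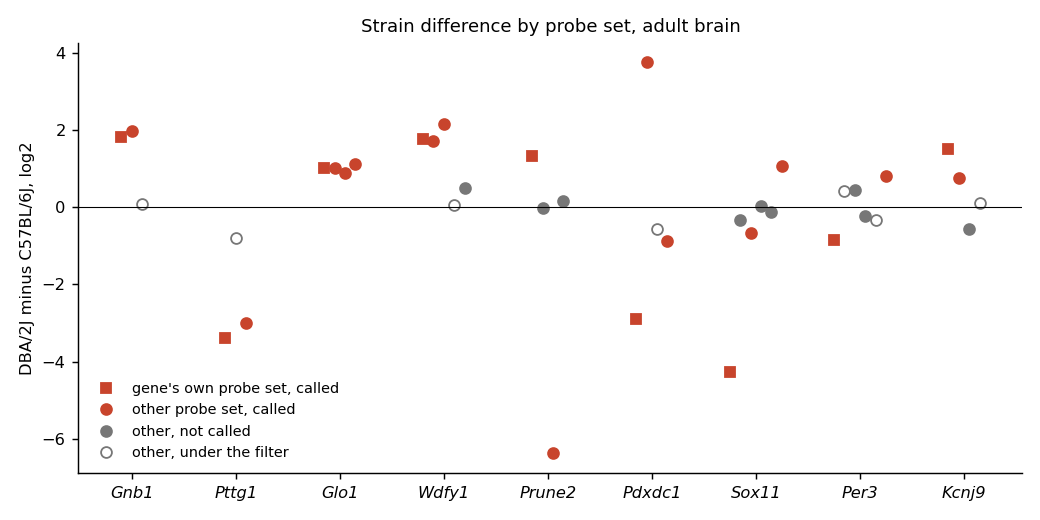
Each symbol is the D2 minus B6 difference (log2) of 1 probe set in adult brain, squares for the probe set that stands for its gene, red for called, open for probe sets under the filter. Gnb1, Pttg1, Glo1 and Wdfy1 have called probe sets on 1 side of 0, while Prune2, Pdxdc1, Sox11 and Per3 have them on both sides.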

How the data were processed

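The values are log2 signals of 45101 probe sets, deposited by the authors and made with RMA per the submitters' processing notes; version and genome build are not given in the sources used here. Of the values of a pair of adult brain arrays, 2.51 to 4.31% were equal, and 0 of those shared with any other set, so the 9 adult brain arrays form a normalization set of their own. Probe sets with exactly 1 gene symbol (34958; 932 had several, 9211 none) were named through a platform table and RefSeq, which matched 34754. Groups came from the sample titles. limma 3.58.1 under R 4.3.3 gave the strain contrasts (a mean for each of 12 brain groups, eBayes, two-sided), with contrasts against the mean of the earlier stages and, over 72 arrays, against liver. Fits were tested on simulated data. P-values were adjusted over all genes tested by Benjamini-Hochberg. Replicate numbers did not pair arrays. An exact permutation of 3 against 3 arrays cannot go below p = 0.1, so none was used.

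Genes were named by rule: the 12 highest and 12 lowest called without overlap, up to 4 called and 2 most abundant members of each of 52 lists, the 10 largest changes with stage, the 6 largest against liver, and neighbouring called genes. Clone-like symbols (21 called) were counted, not named, outside neighbour pairs. The comparison, the lists and the tests were chosen with earlier results of these data known, and lists carry counts and medians without tests. List genes without a probe set of their own were not analysed here. Alternatives were filters, choices of probe set, normalizations, variance models, array weights, samples in the fit, a replicate block, no fold minimum and each adult brain array left out.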

Additional observations from a re-analysis of the deposited data

Results flagged for a closer look

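The D2 minus B6 difference of adult brain was tested against the mean of the same difference at E14.5, P1 and P7, and 141 genes changed by at least 1.5-fold at an adjusted p below 0.05 (limma). The values that follow are changes of a difference on the log2 scale, positive where D2 stood higher against B6 in the adult than before. Upward changes among named genes were found for Snhg14 (3.25), Pmch (3.09), Slc6a3 (2.02), Xaf1 (2.01), Ptchd4 (1.95), Irs4 (1.86), Appbp2 (1.74), Prune2 (1.74), Gnb1 (1.68), Avp (1.65), Rbm45 (1.63), Stab2 (1.38), Slc18a2 (1.28), Cap1 (1.12), Hcrt (0.96), Sbsn (0.89), Oxt (0.80), Kcnj10 (0.74), Gal (0.72) and Tmem87a (0.69). They include 5 of the 9 tested genes of the hypothalamic list (Avp, Oxt, Hcrt, Gal and Pmch) and both dopamine neuron transporters, but Sbsn and Snhg14 remained lower in D2 at P90, by less than before. Downward changes were found for Pttg1 (-3.92), S100a5 (-2.32), Nek2 (-1.50), Mir1931 (-1.47), Ang (-1.45), Sc5d (-1.39), Rpgrip1 (-1.12), Dbp (-1.03), Scn4b (-1.03), Sox11 (-0.96), Doc2g (-0.91), Zfp874a (-0.83), Ciart (-0.71) and 2610507I01Rik (-0.60). Dbp, Ciart, Doc2g, Scn4b and S100a5 in this group were not called between the strains at any earlier stage, where levels were not filtered.

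The same difference was tested against that of adult liver, and 385 genes departed from it. Among named genes the brain difference was the higher for Stab2 (3.63), Rbm45 (1.41), Ang (1.41), Gnb1 (1.31), Wdfy1 (1.28), Tmem87a (1.19), Zfp874a (1.05), Hcrt (0.93) and Oxt (0.74). It was the lower for Rassf4 (-5.10), Fmn2 (-3.60), Hamp2 (-3.59), Crym (-3.37), Dnaic1 (-2.91), Acer3 (-2.55), Mir1931 (-1.95), Dbp (-1.49), Sc5d (-1.28), Per3 (-1.11), Doc2g (-1.07), Nnt (-0.97), Hddc3 (-0.94), Ciart (-0.77) and Pttg1 (-0.72). For Rassf4, Fmn2, Hamp2, Crym and Dnaic1 the strain difference was called in liver and not in brain.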

How the results depend on the processing

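Counts of calls moved mostly with the number of genes tested and with the fold minimum. With a stricter filter (highest strain mean above 8.30) 146 genes differed between D2 and B6, with 77 changed against the earlier stages, 230 against liver, 20 list genes and 29 genes with an agreeing second probe set. With all probe sets tested singly, 564 probe sets differed and 269 changed against the earlier stages. Without a fold minimum 754 genes differed, with 26 neighbour pairs, 60 list genes, 136 second probe sets, 332 changes with stage and 602 against liver. Without a filter there were 12 neighbour pairs and 662 changes against liver. The choice of probe set reversed the direction of 3 named genes, and the cause was not tested. With the mean of the probe sets Per3 was at 0.046 and Prune2 at -1.22, and with the probe set highest over 72 arrays Per3 was at 0.45 and Kcnj9 at -0.55. By that choice Sox11 (-0.34), Gprc5b (0.01), Cuedc1 (0.12) and Ptchd4 (0.06) were no longer called. With the mean, Pdxdc1 was at -0.14 and no longer called.

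Leaving out each of the 9 adult brain arrays gave 237 to 271 strain differences, 115 to 147 changes with stage, 344 to 390 against liver, 5 to 7 neighbour pairs, 25 to 36 list genes and 52 to 60 second probe sets. B6 replicate 3 mattered most, with 10 of 60 called named genes losing the call. With 1 array left out, the strain keeps 2 arrays, and the spread is pooled over the other groups. Samples with the same replicate number did not deviate together (correlations of -0.09, -0.12 and 0.01 between D2 and B6), and with the replicate block 269 genes differed. Array weights, fits of 9 or 6 arrays, median centring, quantile normalization and a robust trended variance gave 249 to 294. Hcrt was not called in fits of the 9 (adjusted p = 0.0669) or 6 arrays (adjusted p = 0.0818) of adult brain. Appbp2, not called in the main fit, was called in both (adjusted p = 0.00311 and 0.000102) and with the replicate block (adjusted p = 0.018).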

Other observations

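Further called genes, chosen after their values were seen, bear on immune and secretory cells. Fcrls, an Fc receptor-like gene of microglia that was not in the marker list, was at 8.47, 8.49 and 8.55 in B6 and 6.87, 6.96 and 6.71 in D2 (-1.66 ± 0.07, adjusted p = 9.65e-16, limma). The groups did not overlap, and the mean of 129S2 was 6.66. Ighm, the heavy chain of immunoglobulin M, fell by 1.54 (SE 0.14) and the alarmin gene Il33, made by astrocytes and oligodendrocytes, by 0.91 (SE 0.12). Serpina3n, a protease inhibitor of reactive astrocytes, rose by 1.28 (SE 0.13). Lpl, lipoprotein lipase, rose by 1.18 (SE 0.30).

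Scg5, the chaperone of a prohormone convertase, was at 11.6, 11.7 and 11.6 in B6 and 12.6, 12.6 and 12.7 in D2 (0.99 ± 0.16, adjusted p = 4.84e-05). Pam, which amidates peptides such as vasopressin and oxytocin, was 0.78 ± 0.17 higher (adjusted p = 0.00372). Ret, the signalling receptor for the glial cell line-derived neurotrophic factor family and a gene of dopamine neurons, was at 6.25, 6.20 and 6.06 in B6 and 7.41, 7.04 and 7.59 in D2 (1.18 ± 0.25, with the B6 mean under the filter), and D2 replicate 2 was again the lowest of its group.

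Probe sets without a single gene symbol were left out of the comparison by gene. Of 10143 such probe sets, 3001 lay above the filter and 193 (6.43%) were called, 61 higher and 132 lower in D2, with differences from -5.96 to 3.80.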
